A study of Homo sapiens with 4 samples.

Results

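Prostaglandin synthesis and receptor genes were followed in IMR90, fetal human lung fibroblasts, after knockdown of HMGB1, an abundant chromatin protein. The set held 8 genes, chosen by symbol among 63677 genes in the count files: PLA2G4A, PTGS1, PTGS2, PTGES, PTGIS, HPGD, PTGER2 and PTGER4. All 8 had an identifier on a primary chromosome, and 7 of them passed the low-count filter, HPGD being left out with at most 3 reads in any library. The 4 libraries were 2 controls, transfected with a non-targeting control siRNA (NTC), and 2 knockdowns, transfected with siRNA against HMGB1, each kept for 72 h with RNAiMAX. The first replicate of each group was grown from isolate I90-10 and the second from I90-79, cells of passage 5 for which no other agent is given. The knockdown lowers HMGB1 and does not remove it, and each group rests on 1 library per isolate.

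In this pathway, cytosolic phospholipase A2 (PLA2G4A) frees arachidonic acid from membranes, and the cyclooxygenases PTGS1 and PTGS2 turn it into a common precursor. Terminal synthases then shape the product, with PTGES giving prostaglandin E2 and PTGIS giving prostacyclin, while HPGD inactivates prostaglandins. PTGER2 and PTGER4 are receptors for prostaglandin E2 that raise cyclic AMP, and in lung fibroblasts this lipid is known for holding back proliferation and collagen synthesis.

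Counted reads per library ran from 29861687 to 35317010. HMGB1 itself fell from 181 and 237 CPM (read counts scaled to library size by the TMM method) in the controls to 16.0 and 18.9 CPM in the knockdowns, with a log2-fold change of −3.59 (SE, standard error, 0.19 and edgeR adjusted p = 0.0075). All 9 fibroblast markers were expressed, at a summed 34200 and 18000 CPM in controls and 32700 and 20600 CPM in knockdowns. The sum was lower in I90-79 than in I90-10 in both groups, and 5 of the 9 were called lower in I90-79, beside 1.23% of all genes tested. In the fit with the isolate, 2 of the 9 were called lower and 1 higher upon knockdown, beside 7.84% and 6.68% of all genes. Markers of epithelial cells summed to at most 0.715 CPM (KRT5 and KRT14 at 0) and those of immune cells to at most 0.346 CPM (LYZ, CD3E and MS4A1 at 0). The 4 endothelial markers with an identifier summed to 1.5 and 1.49 CPM in controls and 4.33 and 3.39 CPM in knockdowns, most of it VWF, which that fit called upregulated, with CDH5 and ERG at 0. The part of these markers in the knockdown results was not tested. These are bulk libraries, so fewer cells expressing a gene and less RNA per cell cannot be told apart.

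Calls needed an adjusted p under 0.01 together with a log2-fold change past 0.6 in either direction. The main test compared the groups without a term for the isolate. The second fit added the isolate as a replicate block, since the labels pair the libraries by isolate. Without the isolate term, 0 of the 7 members tested were called upregulated, against 0.0649% of all 15398 genes tested, and 0 were called downregulated, against 0.136%. The unadjusted p was below 0.05 for 2 of the 7 members, near the 28.3% of all genes tested. In the fit with the block, the cyclooxygenases PTGS1 and PTGS2 were called upregulated and PTGIS downregulated, where 6.68% and 7.84% of all genes tested were called in these directions. On the CPM scale, both knockdown libraries lay above both controls for 4 members (PTGS1, PTGS2, PTGES and PTGER4), an order found for 29.8% of all genes tested. Both lay below the controls for 0 members, against 30.2% of all genes.

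**Figure D1:**
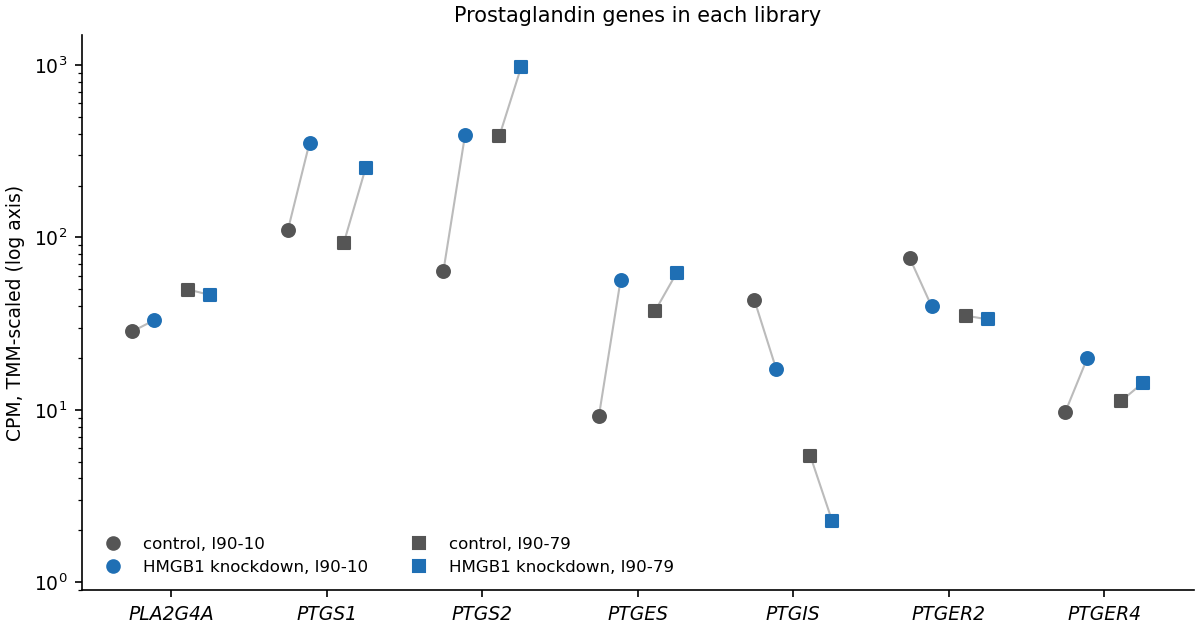
Level of each gene in the 4 libraries, in TMM-scaled CPM on a log axis; circles are isolate I90-10 and squares I90-79, grey is control and blue HMGB1 knockdown, and a line joins the libraries of 1 isolate. PTGS1 is higher in the knockdown of both isolates, PTGS2 spans from 63.5 to 971 CPM, and PTGIS differs more between the isolates than between control and knockdown.

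PLA2G4A, which starts the pathway (ENSG00000116711, hg19 chromosome 1, bases 186798085 to 186958113, plus strand), differed little between the groups. It was read at 28.5 and 49.9 CPM in the controls and at 33.1 and 46.4 CPM in the knockdowns, so that the groups overlapped and I90-79 was the higher isolate in both. Its mean was 39.2 ± 15.2 CPM (SD, n = 2) in controls and 39.7 ± 9.45 CPM (SD, n = 2) in knockdowns. The log2-fold change upon HMGB1 knockdown was 0.02 (SE 0.31, adjusted p = 0.97), and 0.05 with the replicate block (SE 0.12, adjusted p = 0.77). Its sign was not stable, being −0.33 without control replicate 1 and −0.24 without knockdown replicate 2, and 0.48 without control replicate 2. These fits had no isolate term, and the group that lost a library held a single isolate.

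The cyclooxygenases PTGS1 and PTGS2 catalyse the same step and differ in how their genes are known to be used, PTGS1 being present at rest in many tissues and PTGS2 being induced by cytokines and growth factors. Their promoters are shown because both genes were higher after the knockdown in each isolate. The windows run from 250 bases before to 50 bases after the start (RefSeq, GRCh38.p14). Capitals mark, on either strand, the TATA box TATAAA, the cyclic AMP response half-site CGTCA, the C/EBP palindrome TTNCGNAA and the GC box GGGCGG. PTGS1 has 2 annotated starts, at chr9:122370283-122370582 (plus strand) and chr9:122375052-122375351 (plus strand), and the PTGS2 window is chr1:186680374-186680673 (minus strand).
PTGS1 upstream start: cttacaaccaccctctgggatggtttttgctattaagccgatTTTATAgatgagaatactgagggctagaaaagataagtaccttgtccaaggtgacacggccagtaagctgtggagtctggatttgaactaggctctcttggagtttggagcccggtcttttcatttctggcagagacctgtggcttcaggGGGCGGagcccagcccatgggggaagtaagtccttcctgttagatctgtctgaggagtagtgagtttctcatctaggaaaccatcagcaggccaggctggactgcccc
PTGS1 downstream start: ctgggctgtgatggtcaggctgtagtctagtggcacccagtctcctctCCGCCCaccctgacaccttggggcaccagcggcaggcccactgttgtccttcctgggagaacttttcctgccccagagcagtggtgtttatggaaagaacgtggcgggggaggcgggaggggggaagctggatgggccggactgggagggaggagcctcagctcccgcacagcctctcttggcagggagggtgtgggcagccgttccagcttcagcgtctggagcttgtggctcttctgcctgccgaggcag
PTGS2: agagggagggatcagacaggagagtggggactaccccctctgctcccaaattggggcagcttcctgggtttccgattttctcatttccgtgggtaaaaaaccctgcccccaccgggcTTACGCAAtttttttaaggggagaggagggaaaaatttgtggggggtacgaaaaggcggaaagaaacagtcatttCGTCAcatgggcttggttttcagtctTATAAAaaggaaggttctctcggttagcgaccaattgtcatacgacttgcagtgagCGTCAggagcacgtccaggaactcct
The PTGS2 window held 1 TATA box, 2 cyclic AMP response half-sites and 1 C/EBP palindrome, and no GC box. Among 35116 promoter windows, 11.5% held TATAAA, 24.6% CGTCA, 2.6% TTNCGNAA and 45.0% GGGCGG. The windows of PTGS1 held 1 GC box each, and the upstream one also held TATAAA on the opposite strand. The AP-1 letters TGANTCA, present in 7.7% of promoters, were in none of these 3 windows. A match is a run of letters, not a measured site.

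PTGS1 was higher in the knockdown of both isolates. The gene (ENSG00000095303) occupies bases 125132824 to 125157982 of hg19 chromosome 9, on the plus strand. Its reads came to 110 and 93.0 CPM in the controls and 355 and 252 CPM in the knockdowns, so that the lowest knockdown library was above the highest control. The means were 101 ± 11.9 and 303 ± 72.4 CPM (SD, n = 2 each). Upon HMGB1 knockdown the level was 3.23 times the control in I90-10 and 2.71 times in I90-79. The log2-fold change was 1.58 (SE 0.20, adjusted p = 0.019), which did not pass the threshold, and it was called upregulated with the replicate block at 1.57 (SE 0.10, adjusted p = 6.2e-05). Without the block, DESeq2 also called it upregulated, at 1.59 (adjusted p = 5.8e-10). So did RUVs, the normalization the study used, followed by DESeq2, at 1.75 (adjusted p = 2.4e-27). Leaving out each library in turn gave from 1.31 to 1.81. The edgeR adjusted p passed without control replicate 1 (adjusted p = 0.0071) but not without knockdown replicate 1 (adjusted p = 0.066).

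PTGS2 had the highest level of the set in the knockdowns and varied most in absolute terms. The gene (ENSG00000073756) occupies bases 186640923 to 186649559 of hg19 chromosome 1, on the minus strand. The controls held 63.5 and 387 CPM and the knockdowns 395 and 971 CPM. The groups did not overlap, but only narrowly, since control I90-79 was near knockdown I90-10, and without TMM scaling these libraries stood at 404 and 382 CPM, so that the groups overlapped. Within I90-10 the knockdown was 6.23 times the control and within I90-79 it was 2.50 times, a difference between isolates that has no test with 1 library in each cell of the design. The means were 225 ± 229 CPM in controls and 683 ± 407 CPM in knockdowns (SD, n = 2 each).

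PTGS2 was not called in the main test, with a log2-fold change of 1.60 (SE 0.88, adjusted p = 0.29). With the replicate block it was called upregulated at 1.97 (SE 0.26, adjusted p = 0.0011). Leaving out control replicate 1 or knockdown replicate 2, with no isolate term, lowered the value to 0.81 in each case. Without control replicate 2 it was 3.43 and called (adjusted p = 0.0075).

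Divided by exon length, PTGS2 made up 38.1% of the cyclooxygenase transcripts in control I90-10 and 81.6% in control I90-79. In the knockdowns the shares were 54.3% and 80.4%. The share was thus higher in the knockdown for I90-10 and about level for I90-79, and the group means of 59.8 ± 30.8% and 67.3 ± 18.5% (SD, n = 2) differed by less than their spread. The summed level of both cyclooxygenases was 31.6 and 90.1 RPKM (CPM per kilobase of exon) in controls and 138 and 229 RPKM in knockdowns, without overlap.

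**Figure D2:**
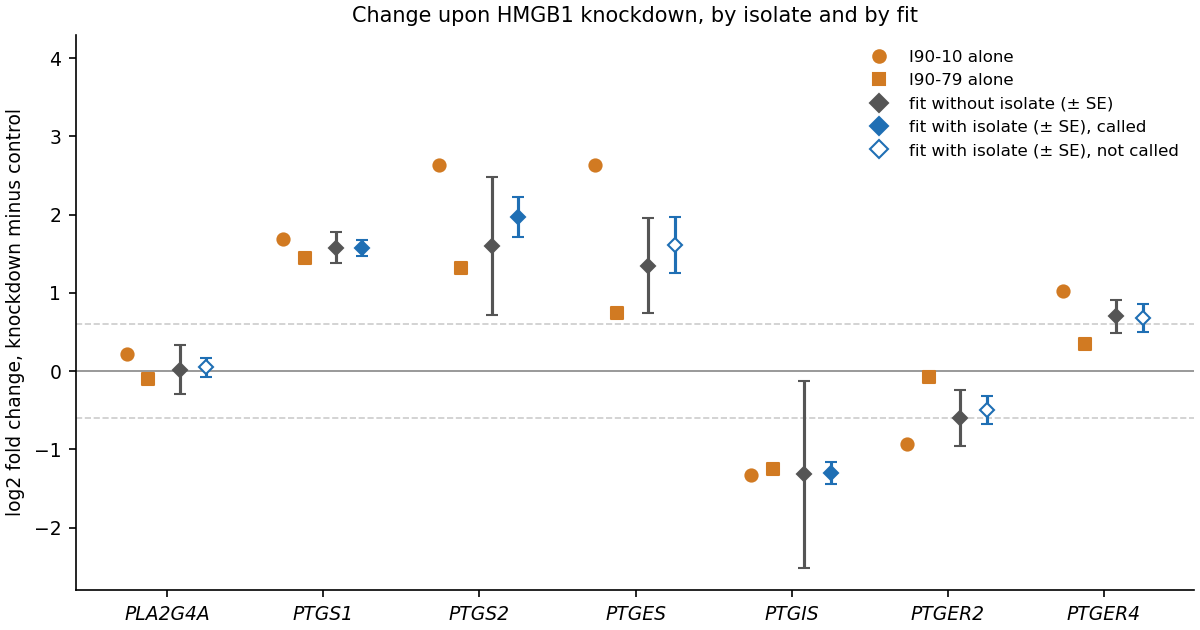
Log2-fold change of each gene, knockdown minus control; orange circles and squares are the isolates I90-10 and I90-79 alone, grey diamonds the fit without and blue diamonds the fit with the isolate term (bars, standard error), filled blue where called, and dashed lines mark 0.6 in either direction. The standard error of PTGIS drops from 1.20 to 0.14 and that of PTGS2 from 0.88 to 0.26 when the isolate is in the fit.

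The terminal synthases PTGES and PTGIS had fold changes of opposite sign. PTGES was read at 9.19 and 37.3 CPM in the controls and at 56.8 and 62.3 CPM in the knockdowns. Control I90-10 was the low library, and both knockdowns were above both controls. The knockdown was 6.18 times the control in I90-10 and 1.67 times in I90-79. Its log2-fold change of 1.35 (SE 0.61, adjusted p = 0.22) was not called, nor was that with the replicate block, 1.61 (SE 0.36, adjusted p = 0.011). With no isolate term, the value was 2.70 without control replicate 2 but 0.67 without control replicate 1.

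PTGES (ENSG00000148344) occupies bases 132500610 to 132515326 of hg19 chromosome 9, on the minus strand, and 67.0% of its exon bases also belong to another gene of the same strand, ENSG00000255824, on which 0 reads were counted in all 4 libraries. Reads in the shared stretch were thus not counted for both genes, but whether they were dropped is not stated. Over the 626 unshared exon bases, a length chosen after the data had been seen, the level of PTGES was 37.1 ± 31.7 RPKM in controls and 95.1 ± 6.24 RPKM in knockdowns (SD, n = 2), in place of 12.2 and 31.4 RPKM. The promoter is shown beside those of the cyclooxygenases, since both knockdown libraries were above both controls for all 3 genes in TMM-scaled CPM. Capitals mark the same letters as above, here 2 GC boxes, in the window chr9:129752993-129753292 (minus strand, GRCh38.p14).
PTGES: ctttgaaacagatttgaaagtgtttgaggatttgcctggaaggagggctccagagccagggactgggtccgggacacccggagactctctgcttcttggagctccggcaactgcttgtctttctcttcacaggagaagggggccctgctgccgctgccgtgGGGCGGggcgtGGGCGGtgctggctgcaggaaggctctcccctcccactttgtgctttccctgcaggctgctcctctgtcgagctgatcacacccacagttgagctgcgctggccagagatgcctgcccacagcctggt
This window held neither TATAAA nor CGTCA.

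PTGIS, the prostacyclin synthase, was read at 43.4 and 5.40 CPM in the controls and at 17.3 and 2.27 CPM in the knockdowns. The gene (ENSG00000124212) occupies bases 48120411 to 48184683 of hg19 chromosome 20, on the minus strand. The groups overlapped, and both libraries of I90-10 were above both libraries of I90-79. Within the isolates the knockdown was 0.399 times the control in I90-10 and 0.421 times in I90-79. The log2-fold change was −1.32 (SE 1.20, adjusted p = 0.52) without and −1.30 (SE 0.14, adjusted p = 0.00036) with the replicate block, which called it downregulated. It was −3.42 without knockdown replicate 1, and its sign turned, to 0.85, without control replicate 1. These fits had no isolate term, so a single isolate in the reduced group stood against both isolates in the other. With RUVs followed by DESeq2 the sign also turned, to 0.30. The ratio of PTGES to PTGIS per exon length was 0.623 and 20.3 in the controls and 9.65 and 80.6 in the knockdowns of I90-10 and I90-79. Over the unshared exon bases of PTGES these ratios were 1.89 and 61.5 in the controls and 29.2 and 244 in the knockdowns, so which synthase was higher in control I90-10 turns with the length used.

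HPGD, the enzyme that starts prostaglandin breakdown, was at the limit of detection (ENSG00000164120, hg19 chromosome 4, bases 175411328 to 175444305, minus strand). It had 2 and 0 reads in the controls and 0 and 3 reads in the knockdowns. At this depth 3 counts correspond to between 0.0814 and 0.104 CPM, counting error only, so no difference was detectable and no fold change is given.

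PTGER2 and PTGER4, the members that are receptors for prostaglandin E2, differed from each other in the sign of their values. PTGER4 (ENSG00000171522, hg19 chromosome 5, bases 40679600 to 40693837, plus strand) was read at 9.77 and 11.3 CPM in the controls and at 19.9 and 14.4 CPM in the knockdowns, without overlap. The knockdown was 2.04 times the control in I90-10 and 1.27 times in I90-79. Its log2-fold change was 0.70 (SE 0.21, adjusted p = 0.11), and 0.68 with the replicate block (SE 0.18, adjusted p = 0.022), and neither was called. It was 0.45 without knockdown replicate 1. PTGER2 (ENSG00000125384, hg19 chromosome 14, bases 52781023 to 52795324, plus strand) was read at 75.6 and 35.2 CPM in the controls and at 39.8 and 33.5 CPM in the knockdowns, where control I90-10 was the high library and the other 3 lay close together. Its log2-fold change was −0.60 (SE 0.36, adjusted p = 0.33), and −0.50 with the replicate block (SE 0.18, adjusted p = 0.069). Without control replicate 1 it was 0.05, and without control replicate 2 it was −1.05, both with no isolate term. The ratio of PTGER4 to PTGER2 per exon length was 0.0806 and 0.200 in the controls and 0.312 and 0.268 in the knockdowns.

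Since both isolates occur in both groups, the isolates could be compared with the knockdown as a term. The isolate goes with the replicate number, so the isolate and any other difference between the replicates cannot be told apart. PTGS2 was called higher in I90-79 than in I90-10, with a log2-fold change of 1.94 (SE 0.26, adjusted p = 0.0072), a direction called for 0.442% of all genes tested. PTGIS was called lower in I90-79, at −2.97 (SE 0.14, adjusted p = 0.00045), where 1.23% of all genes were called. PTGS2 in I90-79 was 6.10 times its level in I90-10 in the controls and 2.46 times in the knockdowns, and for PTGIS these values were 0.124 and 0.131. The PTGS2 call was lost with DESeq2 (log2-fold change 1.95, adjusted p = 0.028), while that of PTGIS was kept. The other 5 members tested were not called. PLA2G4A had 0.65 (SE 0.12, adjusted p = 0.018, but called with DESeq2 at an adjusted p of 0.0042), PTGES 1.0 (SE 0.36, adjusted p = 0.15) and PTGER2 −0.68 (SE 0.18, adjusted p = 0.068). For PTGS1 the value was −0.37 (SE 0.10, adjusted p = 0.076) and for PTGER4 −0.14 (SE 0.18, adjusted p = 0.70). The fibroblast markers moved with the isolate too, and their part in these differences was not tested.

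**Figure D3:**
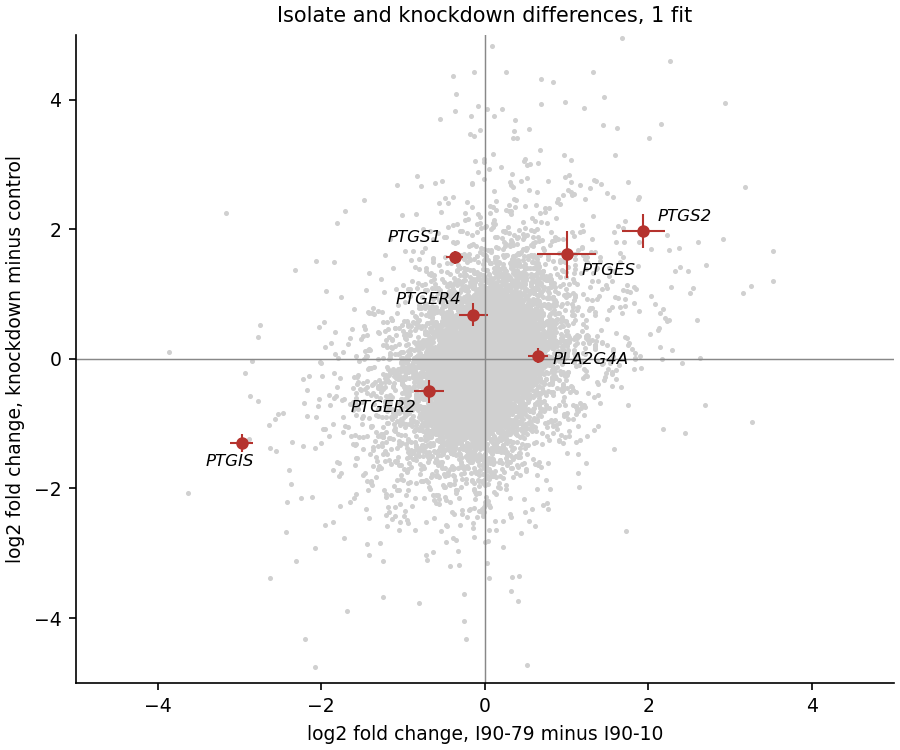
Log2-fold change between isolates (I90-79 minus I90-10, horizontal) and upon knockdown (vertical) from the same fit; grey dots are the 15398 genes tested, of which 13 lie outside the axes, and red points are 7 members with standard errors. PTGS1 lies near the centre of the horizontal axis, PTGS2 and PTGES are positive on both axes, and PTGIS is at −2.97 on the horizontal axis.

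Levels of different members were compared per exon length. In the controls PTGS2 led with a mean of 42.8 RPKM, followed by PTGER2 (22.4 RPKM), PTGS1 (18.1 RPKM), PLA2G4A (13.6 RPKM), PTGES (12.2 RPKM), PTGIS (4.38 RPKM) and PTGER4 (2.66 RPKM). The ranges of neighbours in this order overlapped, so that neighbours could not be ranked, while HPGD (0.00616 RPKM) lay apart below PTGER4. Members further apart in the order could be: PTGER4 lay below all libraries of the first 5, and PTGIS below those of PTGS2, PTGER2, PTGS1 and PLA2G4A. In the knockdowns the order was PTGS2 (130 RPKM), PTGS1 (54.1 RPKM), PTGES (31.4 RPKM), PTGER2 (14.8 RPKM), PLA2G4A (13.8 RPKM), PTGER4 (4.33 RPKM), PTGIS (1.76 RPKM) and HPGD (0.00869 RPKM). Here the ranges of PTGER2 and PLA2G4A overlapped and those of the other neighbours did not. The place of PTGES depends on its length. Over its unshared exon bases it ranked 2 in both groups, from 14.7 to 59.5 RPKM in controls and from 90.7 to 99.5 RPKM in knockdowns, there above PTGS1 and within the range of PTGS2.

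PTGS2 and PLA2G4A lie 148.5 kb apart on chromosome 1, and the only gene of the files between them was the long noncoding RNA PACERR. It starts beside PTGS2 and runs the other way, from 186649754 to 186650578 on the plus strand of hg19. The promoter windows of the pair share 270 of their 300 bases in RefSeq, and that of PACERR reaches further to the other side, where it holds a GC box that the PTGS2 window lacks. PACERR had 5 and 27 reads in the controls and 7 and 56 reads in the knockdowns, with more in I90-79 in both groups. Its log2-fold change was 1.14 (SE 1.04, adjusted p = 0.52), and 1.09 with the replicate block (SE 0.47, adjusted p = 0.11). The difference between isolates was 2.54 (SE 0.50, adjusted p = 0.025), also not called. The strand setting of the read counting is not given in the sources used here.

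The stability of PTGS2 mRNA is known to be set by AU-rich elements in its 3′ UTR, built from the DNA word ATTTA. In the GENCODE annotation lifted to GRCh37, the 3′ UTR of PTGS2 held 22 copies in 2562 bases, more than in 97.6% of 18935 genes. This rank is by count, which can rise with length, and genes were not ranked per kilobase. It also held 2 overlapping copies of the nonamer ATTTATTTA, found in 7.1% of genes. PTGER4 held 9 copies and 1 nonamer. The other members held from 1 (PTGES) to 5 copies (HPGD and PTGER2), where the median gene had 2. Per kilobase of 3′ UTR, PTGS2 (8.59 copies) was close to PLA2G4A (8.46, from 4 copies in 473 bases). PTGER4 had 6.63 per kilobase and the rest from 0.49 (PTGIS) to 4.37 (PTGER2). Windows of 30 bases are shown for the members with a nonamer, with ATTTA in capitals; the PTGER4 window holds 2 separate copies and not its nonamer. That of PTGS2 starts at the first base after the stop codon (chr1:186643455-186643484, minus strand) and that of PTGER4 lies at chr5:40692918-40692947 (plus strand), both in hg19.
PTGS2 3′ UTR: aagtctaatgatcatATTTATTTATTTAta
PTGER4 3′ UTR: tattgttgtacatacgATTTAaggtATTTA
Of 6 genes for RNA-binding proteins known to act on PTGS2 mRNA, 1 was called downregulated with the replicate block, where 7.84% of all genes were called, and none in the main test. This was CELF2, an inhibitor of PTGS2 translation, at 23.3 and 11.1 CPM in controls and 4.74 and 4.39 CPM in knockdowns. Its log2-fold change was −1.91 (SE 0.38, adjusted p = 0.045), and −1.83 with the replicate block (SE 0.23, adjusted p = 0.00079). ZFP36L1, a protein that speeds decay of AU-rich mRNAs, had −0.59 (SE 0.20, adjusted p = 0.13), and its −0.60 with the replicate block did not pass the fold threshold (adjusted p = 0.0027). TIA1, a translational silencer, had −0.32 (SE 0.11, adjusted p = 0.13). KHSRP had −0.31 (SE 0.12, adjusted p = 0.17). ZFP36 and ELAVL1 had positive values, 0.28 (SE 0.15, adjusted p = 0.28) and 0.05 (SE 0.11, adjusted p = 0.78).

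The rest of the pathway was read from 5 lists. Of 46 further genes of eicosanoid metabolism and signalling, 32 were tested. None was called without the isolate term, where the unadjusted p of 12 was below 0.05, beside 28.3% of all genes tested. In the blocked fit 6 were called upregulated and 0 downregulated, where 6.68% and 7.84% of all genes were called, and the counts in each list stand against the same shares. Their median log2-fold change in the main test was 0.11, beside −0.005 for all genes tested. Both knockdowns were above both controls for 15 of the 32 and below for 7, beside 29.8% and 30.2% of all genes tested.

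Among 12 genes of arachidonate release and recycling, of which 8 were tested, MBOAT7 was called upregulated with the replicate block. It returns arachidonic acid to phosphatidylinositol. Its level was 119 and 139 CPM in controls and 209 and 185 CPM in knockdowns, with a log2-fold change of 0.61 (adjusted p = 0.057), and 0.62 with the block (adjusted p = 0.0053). The secreted phospholipase PLA2G3 was low, at 0.170 and 0.217 CPM in controls and 1.07 and 0.608 CPM in knockdowns, and was not called in either fit. PLA2G12A, another secreted phospholipase, had −0.43 (SE 0.19, adjusted p = 0.22).

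Of 10 other terminal synthases 9 were tested, and 2 were called upregulated with the replicate block. TBXAS1, the thromboxane synthase, was at 39.0 and 55.4 CPM in controls and 89.6 and 89.7 CPM in knockdowns, with a log2-fold change of 0.92 (adjusted p = 0.047), and 0.94 with the block (adjusted p = 0.0014). AKR1B1, an aldose reductase that can form prostaglandin F2α, is named after its values were seen. It was at 407 and 881 CPM in controls and 865 and 1290 CPM in knockdowns, so that the groups overlapped, with 0.74 (adjusted p = 0.29) and, with the block, 0.82 (adjusted p = 0.0029). PTGES2, a further prostaglandin E synthase, had 0.42 (SE 0.11, adjusted p = 0.077), and AKR1C3, also a prostaglandin F synthase, had 0.92 (SE 0.33, adjusted p = 0.15).

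All 5 further genes of catabolism and transport were tested, and 2 were called upregulated with the replicate block. Both encode prostaglandin reductases, which act downstream of the step that HPGD catalyses. PTGR1 was at 97.1 and 99.8 CPM in controls and 213 and 259 CPM in knockdowns, with a log2-fold change of 1.26 (adjusted p = 0.014), and the same value with the block (adjusted p = 0.00013). ZADH2 was at 22.2 and 20.5 CPM in controls and 34.5 and 34.6 CPM in knockdowns, with 0.70 (adjusted p = 0.036), and the same value with the block (adjusted p = 0.0021). PTGR2 had 0.57 (SE 0.23, adjusted p = 0.18).

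The 8 other receptor genes, 6 of them tested, had mostly low levels. PTGFR, the receptor for prostaglandin F2α, was called upregulated with the replicate block. It was at 1.94 and 3.91 CPM in controls and 8.03 and 9.06 CPM in knockdowns, with a log2-fold change of 1.54 (adjusted p = 0.064), and 1.59 with the block (adjusted p = 0.0018). The prostacyclin receptor PTGIR, at 1.80 and 2.42 CPM in controls and 1.04 and 0.512 CPM in knockdowns, had −1.45 (SE 0.44, adjusted p = 0.11). PTGDR2, a receptor for prostaglandin D2, had −1.28 (SE 0.42, adjusted p = 0.13). PTGER1, a further receptor for prostaglandin E2, was at 0.681 and 1.44 CPM in controls and 0.381 and 0.480 CPM in knockdowns. It had −1.30 (SE 0.51, adjusted p = 0.18) and was not called in either fit. PTGER3 was not tested.

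Of 11 genes of the lipoxygenase and leukotriene branch only 4 were tested, none was called in either fit, and ALOX5, the enzyme at its head, had at most 0.0346 CPM. Among those not tested, LTC4S and LTB4R2 share 88.6% and 99.6% of their exon bases with other genes, so their reads may be undercounted. LTA4H, which makes leukotriene B4, was at 82.5 and 77.4 CPM in controls and 117 and 107 CPM in knockdowns. Its log2-fold change of 0.48 stayed below the fold threshold (adjusted p = 0.062, and 0.0058 with the block). The leukotriene B4 receptor LTB4R had 0.80 (adjusted p = 0.21) and ALOX5AP, the activating protein of ALOX5, −1.03 (adjusted p = 0.40).

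**Figure D4:**
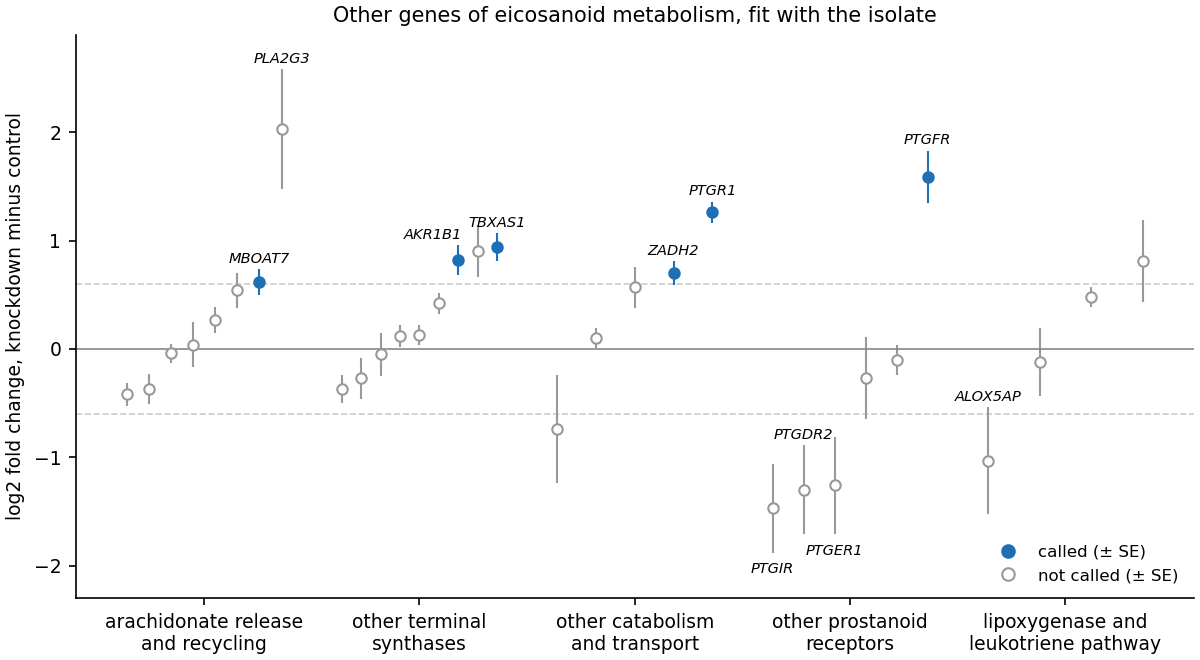
Log2-fold change upon knockdown from the fit with the isolate (bars, standard error) for the 32 other pathway genes tested, in 5 lists and ordered by value within each; filled blue points are called, and dashed lines mark 0.6 in either direction. The 6 called genes are all positive, and 3 receptor genes below −1 are not called.

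Because PTGER2 and PTGER4 raise cyclic AMP, 8 genes known to respond to it were read as well, and all were tested. With the replicate block 1 was called upregulated, in a fit that called 6.68% of all genes so, and a count of 1 in 8 is near that share. This was CREM, a cyclic AMP responsive modulator, which was at 20.9 and 27.0 CPM in controls and 42.3 and 48.6 CPM in knockdowns, with a log2-fold change of 0.92 (adjusted p = 0.040), and 0.93 with the block (adjusted p = 0.00054). The kinase gene SIK1 had 0.96 (SE 0.31, adjusted p = 0.12). NR4A1, an immediate early nuclear receptor, had 1.39 (SE 0.52, adjusted p = 0.16), from 20.1 and 57.3 CPM in controls and 126 and 77.4 CPM in knockdowns. Both knockdowns were above both controls for 4 of the 8 genes and below for 1, beside 29.8% and 30.2% of all genes tested. For the remaining 3 the groups overlapped.

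For each member the genes of most similar pattern were sought among those with a mean of at least 1 CPM. Likeness was the root mean square distance between log2 CPM values over the 4 libraries, each gene centred on its mean, given as a description with no test. Nearest to PTGS2 were the cytokine gene IL1A (0.135), the chemokine gene CXCL8 (0.150) and the fatty acid elongase gene ELOVL7 (0.167). IL1A was at 6.60 and 32.2 CPM in controls and 34.5 and 81.4 CPM in knockdowns, with the near tie of control I90-79 and knockdown I90-10 that PTGS2 had. For PTGES they were the kinase gene PRKG2 (0.137), the G-protein regulator RGS18 (0.146) and the growth factor gene NRG1 (0.159).

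PTGS1 was nearest to PPFIA3 (0.068), the ferritin pseudogene FTH1P20 (0.088), whose reads may be shared with its parent gene, and ACAT2 (0.089), an enzyme of acetyl-CoA metabolism at 28.1 and 20.8 CPM in controls and 77.1 and 58.4 CPM in knockdowns. For PTGIS the closest were RCAN2 (0.295), the keratin gene KRT19 (0.362) and APCDD1 (0.439). Nearest to PLA2G4A were ARHGAP11A (0.020), the condensin subunit gene NCAPG2 (0.033) and ZSCAN16-AS1 (0.039). PTGER2 was nearest to SCN8A (0.069), SLC2A12 (0.076) and HMCN1 (0.082), and PTGER4 to ZDHHC23 (0.032), SLITRK6 (0.040) and USP18 (0.045). Genes with a small range over the libraries find near matches more easily, so these distances are not comparable between members.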

How the data were processed

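RNA-seq was performed on poly(A)-selected RNA of 4 IMR90 libraries (TruSeq, paired-end). The authors mapped reads to hg19 with STAR and deposited unique read counts per gene from featureCounts, without normalization. The tool versions, the strand setting and whether a read pair was counted as 1 are not given in the sources used here. The exon length deposited beside the counts was used for RPKM.

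Counts were analysed with edgeR 4.0.16 (limma 3.58.1, R 4.3.3): filterByExpr kept 15398 genes, libraries were scaled by TMM, and the quasi-likelihood test was followed by Benjamini-Hochberg adjustment over all of them. The standard error was taken from the log2-fold change and the test statistic. Thresholds (adjusted p below 0.01, absolute log2-fold change above 0.6) are those of the methods of the study. Totals were 29869338 and 35317010 counts in the controls and 29861687 and 31086475 in the knockdowns. The replicate numbers mark the isolates, so they pair the libraries, and the difference between isolates in controls and in knockdowns had a correlation of 0.464 across genes. With 2 libraries a group, a permutation test cannot give a two-sided p below 0.333. An interaction of isolate and knockdown leaves no residual degrees of freedom.

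The alternatives were DESeq2 1.42.0, RUVs with 1 factor followed by DESeq2, DESeq2 size factors, other low-count filters, the replicate block and leaving out each library. The fits were also run on simulated counts without an isolate effect, which cannot bear on the choice between the fits with and without the isolate. The members and gene lists were chosen with earlier results of these data known. Named were the members, HMGB1, in each list up to 3 genes of smallest p, neighbours and the 3 genes nearest each member in pattern. The RNA-binding proteins were named in full, LTC4S and LTB4R2 for their shared exon bases, and PTGER1 and PTGER3 as further receptors for prostaglandin E2. Gene places are those of the count files (hg19). Symbols were paired with identifiers through reference tables, for 43631 genes, and PECAM1 found none. RefSeq promoters (GRCh38.p14) matched 7 of the 8 members, and none was found for PTGIS.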

Additional observations from a re-analysis of the deposited data

Results flagged for a closer look

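The log2-fold change of PLA2G4A upon HMGB1 knockdown was 0.22 in I90-10 and −0.10 in I90-79, so the 2 values had opposite signs. The difference was not tested, since each isolate has 1 library per group. Groups of 2 libraries were not checked for outlying samples.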

How the results depend on the processing

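The replicate block, pairing the libraries by isolate, gave 1028 genes called up and 1207 down, in place of 10 and 21. The members gave 2 up (PTGS1 and PTGS2) and 1 down (PTGIS), and the other pathway genes 6 up. DESeq2 with the replicate block gave 967 and 1091 for all genes, 2 and 1 for the members and 6 up for the other pathway genes. Without the block, DESeq2 called 725 up and 817 down, 1 member up (PTGS1) and 5 other pathway genes up. RUVs with DESeq2 called 760 and 826, 1 member up (PTGS1) and 4 other pathway genes up. With no low-count filter the calls were 1118 and 1275, 4 members up and 1 down, and 7 other pathway genes up and 1 down. At least 10 counts in every library left 6 genes up. Leaving out 1 library gave from 0 to 305 genes up and from 0 to 337 down, with 0 in both directions without either knockdown library. The members then ranged from 0 to 2 up, with PTGS1 called without control replicate 1 and PTGS2 and PTGES without control replicate 2, and the other pathway genes from 0 to 3 up (3 without control replicate 2). The lone library of a group is assumed there to vary like the other group. These fits had no isolate term, so that group held a single isolate while the other held both. Between the isolates, where 68 and 189 genes were called, DESeq2 called 166 up and 284 down, and no filter 382 and 531, with 3 members up and 2 down. DESeq2 lost the isolate call of PTGS2 (adjusted p = 0.028) and made that of PLA2G4A (adjusted p = 0.0042). The cause of these shifts was not tested.

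Of 77 member fold changes under alternatives, 55 kept direction and side of the threshold, 16 passed it newly and 6 turned sign. The last were PLA2G4A (−0.29 with RUVs, −0.33 without control replicate 1, −0.24 without knockdown replicate 2), PTGER2 (0.05 without control replicate 1) and PTGIS (0.30 with RUVs, 0.85 without control replicate 1). Leaving out each library in turn, with no isolate term, these members ranged from −0.33 to 0.48, from −1.05 to 0.05 and from −3.42 to 0.85. The depth leaves HPGD at its floor. With 2 libraries a group, a fold change that was not called is not shown to be absent.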
